A study of Mus musculus with 4 samples.

Results

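Ptgis, Prkg2 and Rgs2 encode 3 proteins of second messenger signalling: an enzyme that makes a lipid mediator, a protein kinase that reads cyclic GMP, and a regulator of G proteins. These 3 genes were chosen for their large ratios among second messenger genes. Over the whole series, 6327 genes had a value on all 4 arrays, the 3 among them. The ratios of the 4 arrays themselves chose them, so their values in the comparison below are a description and carry no test. Ptgis and Prkg2 were each read by 1 spot of the array and Rgs2 by 2 spots, which makes 4 spots in all.

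The series compared 2 cell lines on 2-colour cDNA arrays, on which RNA of both lines is labelled with different dyes and competes for the same spots. NIH3T3 is an established line of mouse embryonic fibroblasts. One line was NIH3T3 transfected with Erbb2 and, per the labels, overexpressing it, and the other was NIH3T3 without transfection and with normal Erbb2 expression. Its product is a tyrosine kinase receptor related to the epidermal growth factor receptor. The dye of the transfected RNA was Cy5 on the first 2 arrays and Cy3 on the last 2. The series calls the 4 arrays technical replicates, so each line is 1 biological sample and each SD below is the spread between hybridisations. The sources used here do not say which vector or promoter was used or whether the transfected line is a clone. Part of the labels' protocol text mentions organs and a reference pooled from animals, neither of which applies to cultured cells; the groups here follow the sample labels. An effect of Erbb2 cannot be told apart from any other difference between both lines.

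As background, prostacyclin synthase, the product of Ptgis, is a cytochrome P450 enzyme that turns prostaglandin H2 made by the cyclooxygenases into prostacyclin. Prostacyclin acts mainly on a receptor that couples to the stimulatory G protein and raises cyclic AMP. Cyclic GMP is made by soluble guanylate cyclases, which nitric oxide activates, and by membrane receptors for natriuretic peptides, and is broken down by phosphodiesterases. Prkg2 encodes the membrane-bound type II kinase that cyclic GMP activates, known from intestinal epithelium, bone growth plates and brain. Rgs2 encodes a small GTPase-activating protein that shortens signalling by G proteins, above all those of the Gq class, and its transcript is known to be quickly induced by many stimuli, among them cyclic AMP.

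The sequence before the annotated start of Rgs2 is shown because Rgs2 had the largest ratio of the 3 genes and because its promoter is known for responding to cyclic AMP. It holds the 250 bases before the start site in RefSeq (build GRCm38.p6, chr1:144004150-144004399, minus strand), printed 5′ to 3′ with every match to a searched motif in capitals.

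Rgs2: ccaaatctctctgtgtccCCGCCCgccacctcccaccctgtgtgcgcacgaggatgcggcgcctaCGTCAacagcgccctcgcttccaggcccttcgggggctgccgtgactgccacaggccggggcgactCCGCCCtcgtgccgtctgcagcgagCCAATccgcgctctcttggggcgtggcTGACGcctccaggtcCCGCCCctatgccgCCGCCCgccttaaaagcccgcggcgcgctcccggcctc

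Motifs were searched on both strands. The 5-base core of the cyclic AMP response element (TGACG) matched 2 times, at positions -185 to -181 on the opposite strand and -67 to -63 on the strand of the gene, counted back from -1 as the base before the start. This core was present in 17.8% of 32851 windows of the same length before annotated starts. The whole palindromic element (TGACGTCA), which contains the core on both strands, had 0 matches here and was present in 1.55% of the windows. The GC box (GGGCGG) matched 4 times, all on the opposite strand, against 32.7% of windows with at least 1 match. A CCAAT box lay at -94 to -90 (33.8% of windows). The AP-1 site (TGANTCA) and the TATA box (TATAAA) had 0 matches, against 6.75% and 12.4% of windows. The window was 72.4% G and C, where the median window had 52.4%. These matches describe letters and no binding was measured. Of the 3 genes, Rgs2 was matched in the promoter table and Ptgis and Prkg2 were not.

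A deposited value is a log2 ratio, so a value of 1 is a 2-fold difference between the lines. The likely but unstated direction is transfected over untransfected: ratios at the cap are positive on the first 2 arrays and negative on the last 2, as they would be if Cy5 over Cy3 had been turned on the swapped arrays. If that reading were wrong, every sign below would be the opposite. Between 76.8% and 94.6% of 20355 spots had a value on an array. Across the 6327 genes, the ratios of any pair of arrays had Pearson's r between 0.123 and 0.202, given as a description because genes are not independent replicates. Ratios hold no absolute level, so the identity of the cells could not be read from markers. Of 10 fibroblast markers 6 were on all 4 arrays, with a median of 0.05: Col1a1 (-4.91), Col1a2 (-3.36) and Fap (-0.36) lay below 0 on every array, Vim (0.66) above 0 on every array, and Col3a1 (0.89) and Pdgfra (0.45) had mixed signs. Markers of leukocytes (3 genes on all arrays, median -0.22), epithelium (3, 0.35), endothelium (5, -0.06), muscle (3, 0.11) and fat cells (2, -0.19) included 0 genes above 0 on every array, where 9.58% of all genes were, and 2 below 0 on every array, where 13.0% were. Their part in the results was not tested. Erbb2 itself was not analysed here, so the labels were not checked by it.

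Ptgis, at the start of the prostacyclin branch, was lower in the transfected line on every array. Its spot (RefSeq transcript NM_008968) had log2 ratios of -3.80, -1.44, -3.02 and -4.07 on arrays 1 to 4. Array 2 lay nearest to 0 and array 4 farthest from it. The mean was -3.08 ± 1.18 (SD, n = 4 technical arrays), an 8.47-fold lower level. Of the 6327 genes, 13 had a lower mean. With the transfected RNA in Cy5 the mean of Ptgis was -2.62, and in Cy3 it was -3.54. Both means are below 0 by construction, since all 4 arrays were.

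Prkg2, the cyclic GMP-dependent kinase, was the member on the higher side. Its spot (NM_008926) had 1.58, 2.95, 1.73 and 2.14 on arrays 1 to 4. All of these were above 1, array 2 was highest, and the other arrays lay within 0.6 of one another. The mean was 2.10 ± 0.62 (SD, n = 4 technical arrays), a 4.29-fold higher level, and 12 genes had a higher mean. Its SD was near the median SD of all genes (0.70), and 42.1% of genes had an SD as small. The mean of Prkg2 was 2.27 with the transfected RNA in Cy5 and 1.93 in Cy3.

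Rgs2, the G protein regulator, had the largest ratio of the 3 in size and was lower on every array. Averaged over its spots, it had -2.34, -4.74, -4.28 and -4.22 on arrays 1 to 4. Arrays 2 to 4 lay close together, and array 1 was nearer to 0 than they were. The mean was -3.90 ± 1.06 (SD, n = 4 technical arrays), a 14.9-fold lower level, and 4 genes had a lower mean. Without array 1 it was -4.42 ± 0.28 (n = 3). Array 1 was singled out after its value was seen, so this SD understates the spread. Without array 2, 3 or 4 the SD was 1.105, 1.263 and 1.274.

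**Figure D1:**
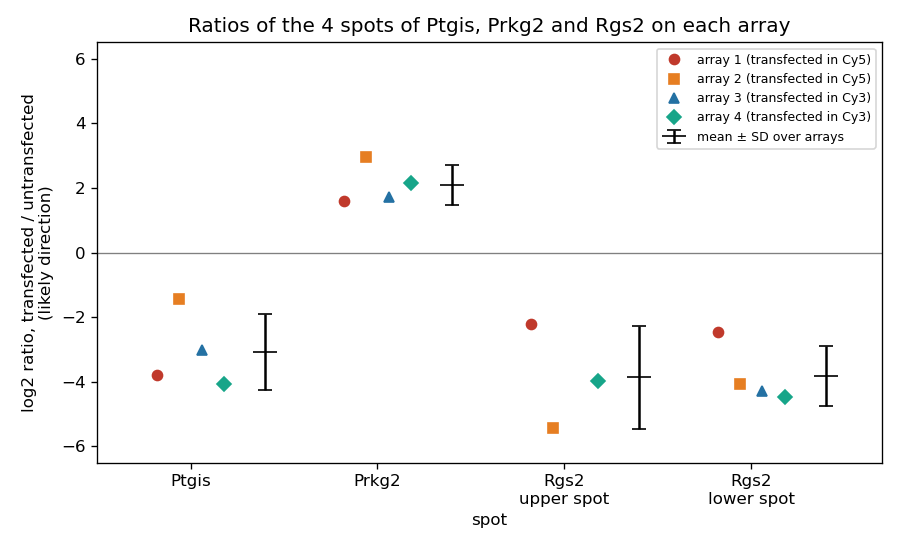
Log2 ratio (vertical axis) of each of the 4 spots of Ptgis, Prkg2 and Rgs2, with 1 point per array, colours and shapes for the array and its dye orientation, and the mean ± SD over arrays in black. All points of Ptgis and Rgs2 lie below -1 and all points of Prkg2 above 1, and the upper spot of Rgs2 has no point for array 3.

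Both Rgs2 spots are annotated with the same transcript (NM_009061) and stand far apart in the table. The upper spot had -2.22, -5.42 and -3.96 on arrays 1, 2 and 4 and no value on array 3, so the gene's value on array 3 rests on the lower spot alone. The lower spot had -2.47, -4.06, -4.28 and -4.49 on arrays 1 to 4. Both spots were thus nearest to 0 on array 1, and their means were -3.87 ± 1.60 (n = 3) and -3.82 ± 0.92 (n = 4). The spots differed by 0.25 on array 1, 1.36 on array 2 and 0.52 on array 4. Pairs of spots of the same gene anywhere in the table differed by a median of 0.70 on array 1, 1.04 on array 2 and 0.81 on array 4, over 3951, 2951 and 3543 pairs.

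The place of a value in the table matters for Rgs2. In the first 6000 rows all 4 columns were read as they stand, whereas in the last part the other columns were read 4 rows above that of array 1, because there the columns line up with that offset. Over the other spots of the last part, the mean Pearson's r of array 1 with the other arrays was 0.130 at 4 rows and -0.010 at 0 rows, a description across spots. The Ptgis, Prkg2 and upper Rgs2 spots lie in the first part and depend on no offset. The lower Rgs2 spot lies in the last part. In its own row, arrays 3 and 4 held 0.39 and -1.83 and array 2 no value. At 4 rows higher the 3 arrays held -4.06, -4.28 and -4.49. Rgs2 was chosen with its values read at this offset, so they are no support for it. With all rows as deposited the mean of Rgs2 was -2.57 ± 2.38, and array 3 was above 0. The upper spot alone gave -3.87.

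**Figure D2:**
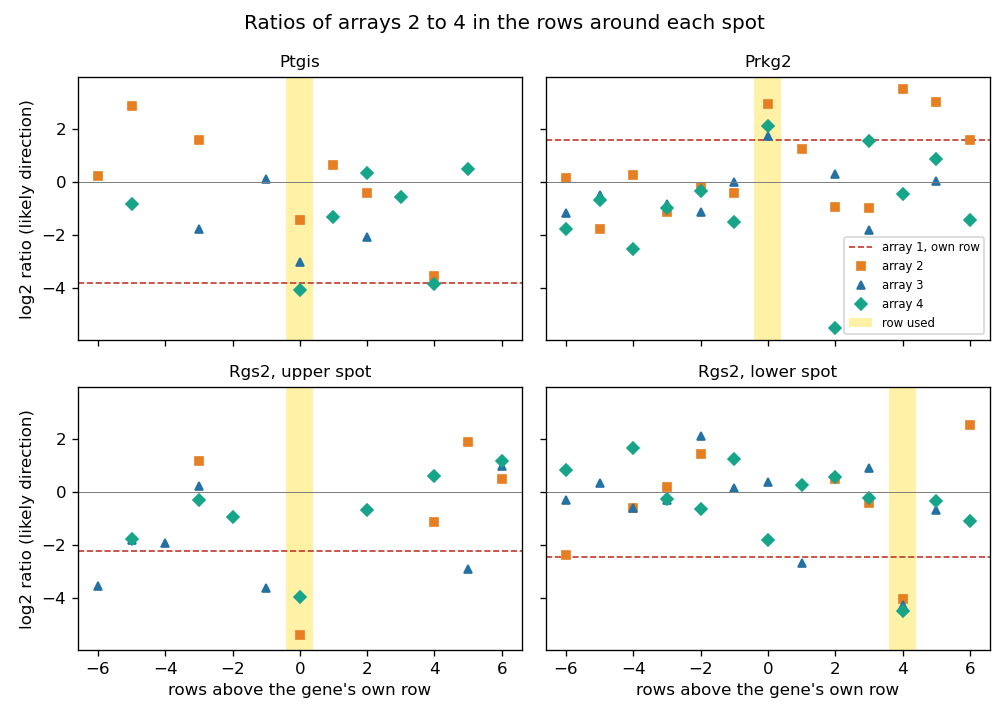
Log2 ratios (vertical axis) of arrays 2 to 4 in the rows around each of the 4 spots (horizontal axis, rows above the gene's own row, from -6 to 6), with array 1 in the gene's own row as a dashed line and the row used shaded. For the lower Rgs2 spot the 3 arrays lie between -4.49 and -4.06 at 4 rows above. For Ptgis, arrays 2 and 4 are also low at 4 rows above (-3.56 and -3.85), a row not used for this gene.

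Read side by side, Ptgis lay below Prkg2 on all 4 arrays, and the mean of Ptgis minus Prkg2 was -5.18 ± 0.79 log2 units. Prkg2 minus Rgs2 was 6.00 ± 1.56. The members were chosen for large ratios on these same arrays, so the order and size of both differences follow from that choice and are no separate result. Ptgis and Rgs2 were not in a fixed order: Ptgis minus Rgs2 was -1.46 on array 1 and 3.30, 1.26 and 0.16 on arrays 2 to 4. The mean of that difference was 0.81 ± 2.00, which is within the spread between arrays. A difference between ratios of different genes compares their changes, not their levels.

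Genes with such ratios were few. In all, 59 of 6327 genes (0.933%) had a ratio of -1 or lower on every array, among them Ptgis and Rgs2, and 20 (0.316%) had 1 or higher on every array, among them Prkg2. Since the 3 genes were chosen by these values, nothing is read from their place here. Limma, fitted to all genes with a dye term and Benjamini-Hochberg adjustment, called 0 genes (0.0%) at an adjusted p under 0.05, with a smallest adjusted p of 0.105. The unadjusted p was under 0.05 for 730 genes (11.5%), with 474 lower (7.49%) and 256 higher (4.05%). The median ratio of all genes was -0.08.

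**Figure D3:**
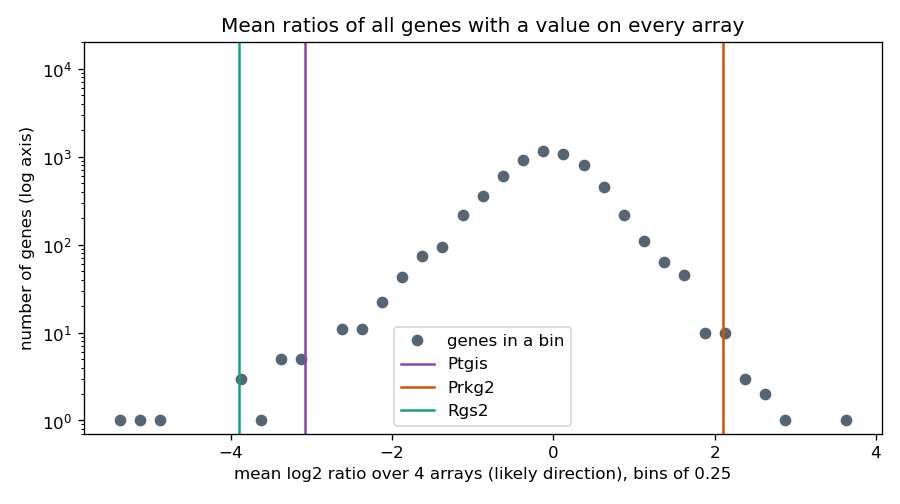
Number of genes (vertical axis, log scale) by mean log2 ratio over the 4 arrays (horizontal axis, bins of 0.25 units), with the means of Ptgis, Prkg2 and Rgs2 as vertical lines. Rgs2 at -3.90 and Ptgis at -3.08 stand in the lower tail and Prkg2 at 2.10 in the upper tail.

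The difference between dye orientations is a separate contrast of the same arrays, which did not choose the genes. In limma's dye term, Ptgis had an adjusted p of 0.876, Prkg2 0.922 and Rgs2 0.889, over all 6327 genes. No gene was called in this contrast (0.0%), and 336 genes (5.31%) had an unadjusted p under 0.05. The Cy5 orientation was higher than the Cy3 orientation for all 3 genes, with means of -3.54 and -4.25 for Rgs2. Whole arrays had the same order: without capped values, the median spot was 0.138 and 0.021 on the Cy5 arrays. On the Cy3 arrays it was -0.162 and -0.223. The share of all genes with this order was not counted, so nothing about the members is read from it. With 2 arrays in each orientation, a p above the threshold does not show that the orientations gave the same ratio.

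The other genes of these pathways were taken from 5 lists: prostanoid synthesis and receptors, cyclic GMP signalling, the RGS family, heterotrimeric G protein subunits and cyclic AMP signalling. Of 158 such genes other than the 3 members, 52 had a value on all 4 arrays. Limma called 0 of the 52 at an adjusted p under 0.05. At an unadjusted p under 0.05 there were 4 (7.69%, against 11.5% of all genes): Mrvi1, Rgs8 and Gng13 on the lower side and Gch1 on the higher. Of the 52, 6 (11.5%) lay below 0 on every array, where 13.0% of all genes did, and 5 (9.62%) lay above 0 on every array, where 9.58% of all genes did. Their median was 0.07. Both shares were near those of all genes, and 0 of the 52 reached 1 in size on every array.

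**Figure D4:**
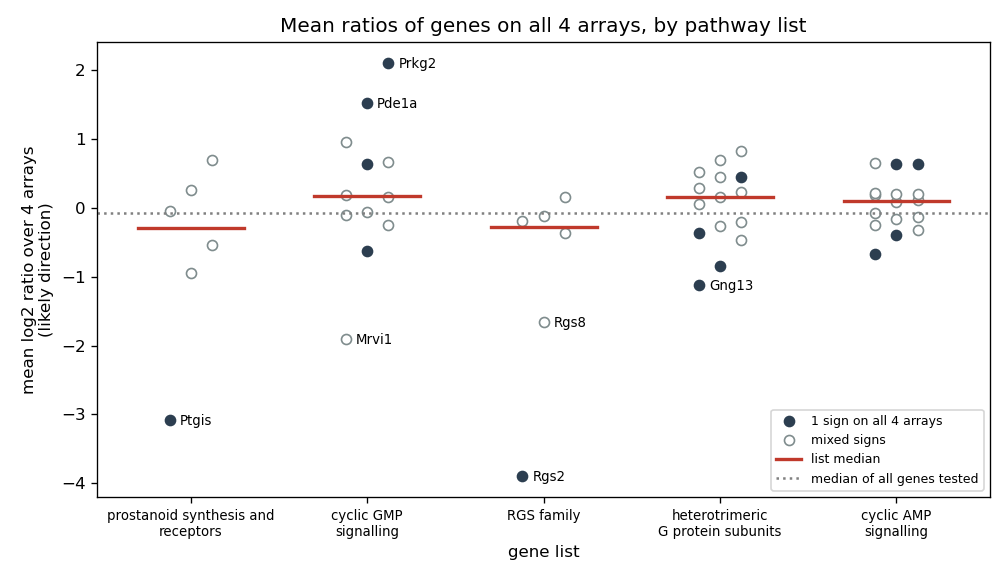
Mean log2 ratio over 4 arrays (vertical axis) of each gene with a value on every array, in 5 pathway lists (horizontal axis); filled points have 1 sign on all 4 arrays, open points mixed signs, red bars are list medians and the dotted line is the median of all genes (-0.08). Most genes lie between -1 and 1, and those of 1 or more in size carry their names, among them Ptgis, Rgs2 and Prkg2, which were chosen for large ratios.

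In the prostanoid list, 10 of 27 genes were named on the array and 6 were on all 4 arrays. Besides Ptgis, 5 had mixed signs and 0 had 1 sign on every array, where 22.6% of all genes did. With so few genes nothing is read from that count. The median of these 5 was -0.04. Ppard, which encodes a nuclear receptor that prostacyclin analogues can activate, had 1.10, -0.67, 0.51 and 1.85 on arrays 1 to 4 (mean 0.70 ± 1.06). The cyclooxygenases Ptgs1 and Ptgs2, the prostaglandin E synthase Ptges and the prostacyclin receptor Ptgir were not analysed here. Of the receptors, Ptger4, which binds prostaglandin E2, had -1.10, -0.81 and -1.79 on arrays 1, 2 and 4 and no value on array 3. The receptor gene Ptger1 was on all 4 arrays, with mixed signs: 0.24, 4.19, -2.72 and -0.665 (mean 0.26 ± 2.89). Both were singled out after their values were seen, and no shared direction of the receptors is read from them.

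In the cyclic GMP list, 20 of 44 genes were named and 12 were on all 4 arrays. The median of the 11 genes besides Prkg2 was 0.16. Pde1a, a calmodulin-dependent phosphodiesterase that breaks down cyclic nucleotides, had 0.53, 4.43, 0.21 and 0.93 on arrays 1 to 4 (mean 1.52 ± 1.96). It was above 0 throughout, and array 2 alone lay above 1. Vasp, an actin regulator and known substrate of cyclic GMP-dependent kinases, had -0.14, 0.41, -0.94 and 0.23 (mean -0.11 ± 0.59). Pde5a, the cyclic GMP-specific phosphodiesterase, had 0.86, -0.03 and 0.04 on arrays 1, 2 and 4 (mean 0.29 ± 0.49).

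Mrvi1 and Gch1 in this list were singled out after their values were seen, for their unadjusted p. Mrvi1 encodes a substrate of the type I kinase at the inositol trisphosphate receptor. It had 0.49, -0.97, -5.15 and -1.995 on arrays 1 to 4, with a mean of -0.24 when the transfected RNA was in Cy5 and -3.57 when it was in Cy3. Gch1, which encodes the first enzyme in making the cofactor of nitric oxide synthases, had 1.47, 2.75, -0.64 and 0.23. Neither had 1 sign on every array, and limma's adjusted p was 0.385 for Mrvi1 and 0.427 for Gch1. The type I kinase gene Prkg1 and the guanylate cyclase genes Gucy1a1 and Gucy1b1 were not analysed here.

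In the RGS list, 12 of 23 genes were named and 6 were on all 4 arrays, of which Rgs2 was the only one with 1 sign throughout. Rgs2 was chosen for its ratio on these arrays, and 22.6% of all genes had 1 sign on every array. With so few RGS genes measured, nothing is read from that count. The median of the other 5 was -0.20. Rgs3, a broad inhibitor of Gi and Gq signalling, had -0.36, -0.09, 2.03 and -0.93 (mean 0.16 ± 1.29), and Rgs12 had 1.07, -0.68, -1.95 and 0.09 (mean -0.37 ± 1.28). Rgs5, known from pericytes, had 1.41, 0.28, -1.33 and -0.84 (mean -0.12 ± 1.22). All 3 had signs that differed between arrays.

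Rgs8, known from cerebellar Purkinje cells, had 0.44, 2.35, -3.48 and -5.95, so that its mean of -1.66 ± 3.75 joined values above 0 in 1 dye orientation and below 0 in the other. Rgs7bp, which encodes a membrane anchor of RGS proteins, had 0.61, 0.41, -1.25 and -0.56. Rgs5, Rgs8 and Rgs7bp were thus above 0 with the transfected RNA in Cy5 and below 0 with it in Cy3. In all, 9 of the 52 other pathway genes (17.3%) had that pattern, against 8.65% of all genes. The value taken as a 1:1 ratio, worked out from the capped ratios, was 0.52, 0.55, -0.90 and -0.27 on arrays 1 to 4. That value has the same pattern of signs, so the pattern can be met without a difference between the lines. Its part in these counts was not tested, and nothing is read from them about the pathways. On fewer arrays, Rgs9 had -0.18, -0.34 and -0.82 on arrays 1, 3 and 4, Rgs14 2.72, -1.99 and -2.27 on arrays 2 to 4, Rgs4 -0.21 and 2.25 on arrays 1 and 4, and Rgs11 0.65 and 1.31 on arrays 1 and 2.

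Among G protein subunits, 15 of 33 genes were on all 4 arrays, with a median of 0.15. Gnaq, which encodes the alpha subunit that Rgs2 acts on, had 0.63, 0.52, -0.19 and -0.03 (mean 0.23 ± 0.40). Gnas, the stimulatory alpha subunit to which the prostacyclin receptor couples, had -0.90, 0.23, -1.04 and -0.19 (mean -0.47 ± 0.60). Gng13, a gamma subunit known from taste and retinal cells, was below 0 on every array, at -0.48, -2.13, -1.42 and -0.46 (mean -1.12 ± 0.81, limma's adjusted p = 0.418). Of the 15, 3 lay below 0 and 1 above 0 on every array, against 13.0% and 9.58% of all genes.

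In the cyclic AMP list, 16 of 34 genes were on all 4 arrays, with a median of 0.10 and means between -0.66 and 0.66. Of these, 2 lay below 0 on every array: Pkig, an inhibitor of protein kinase A (-0.66 ± 0.21), and Prkaca, its catalytic subunit (-0.40 ± 0.44). Those above 0 on every array were Adcy2, an adenylyl cyclase (0.64 ± 0.20), and Prkar1a, a regulatory subunit of the kinase (0.64 ± 0.75). These 4 genes were named after their values were seen.

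The genes with the ratios most like those of each member were sought by Euclidean distance over the 4 arrays, which are technical replicates. Nearest to Ptgis were the matrix protein gene Fbln2 (distance 1.30, mean -3.27 ± 0.51), the serine protease gene Prss23 (1.91, -3.03 ± 0.88) and the mitochondrial carrier gene Slc25a13 (2.13, -2.59 ± 2.00). All 3 lay, like Ptgis, nearest to 0 on array 2. Nearest to Prkg2 were Raver1, which encodes an RNA-binding protein (0.89, 1.82 ± 0.94), the transcription factor gene Klf5 (0.93, 2.40 ± 0.26) and the membrane glycoprotein gene Gpnmb (1.11, 2.20 ± 0.32). Nearest to Rgs2 were the metalloproteinase inhibitor gene Timp3 (1.41, -3.97 ± 1.33), the glutathione transferase gene Gstm1 (1.94, -3.05 ± 0.72) and the matrix glycoprotein gene Sparc (2.06, -3.14 ± 0.42). All 3 had, like Rgs2, the value nearest to 0 on array 1, for Sparc by a small margin (-2.75, against -2.82 on array 4). The search used these same values, so the shared array patterns of both groups follow in part from it and are no separate result.

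**Figure D5:**
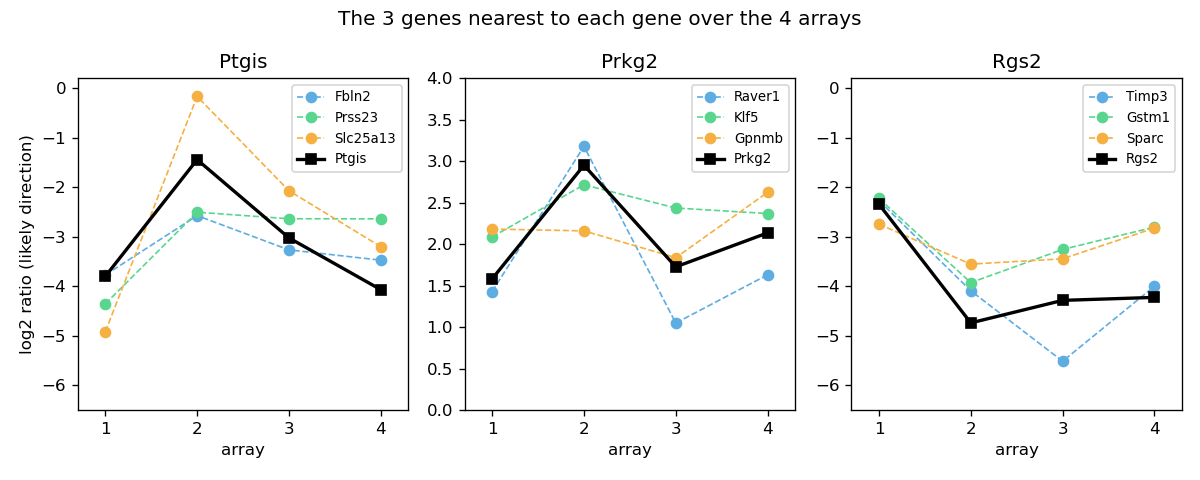
Log2 ratio (vertical axis) on arrays 1 to 4 (horizontal axis) of Ptgis, Prkg2 and Rgs2 in black, each with the 3 genes at the smallest Euclidean distance in colour; lines join arrays for reading and stand for no order. The distances run from 0.89 (Raver1 to Prkg2) to 2.13 (Slc25a13 to Ptgis).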

How the data were processed

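The values analysed are the log2 ratios deposited by the authors, 1 column per array. The sources used here do not say how images were read, background was corrected or ratios were normalized. The log2 scale was read from the values. Capped ratios were taken as 100000-fold, and the value 16.61 units (log2 of 100000) from the cap was taken as a ratio of 1:1. This value was also the commonest on arrays 1, 3 and 4, whereas on array 2 the capped value itself was the commonest. Values beyond 15 either way were set to missing (63, 120, 121 and 114 on arrays 1 to 4). The first 6000 rows were read as they stand; lower down, arrays 2 to 4 were read 3 and then 4 rows higher, and 2300 rows where the offset is unclear were dropped. Of 20355 spots 14030 had 1 symbol in the platform annotation, 5 several and 6320 none; 13994 matched RefSeq (GRCm38.p6) by gene ID. Irag1 was read as Mrvi1, its symbol there.

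Spots of a gene were averaged per array. Genes on all 4 arrays were fitted with limma 3.58.1 (R 4.3.3, lmFit and eBayes) with a dye term, after a test of the code on simulated data. The simulated data had independent noise and neither a dye effect nor row offsets, so that test says nothing about these. The p-values cover the spread between arrays only. The number of arrays limits the precision. The members, lists and row offsets were chosen with earlier results of these data known. Named were the 3 members, list genes with 1 sign on every array and a mean of 1 or more in size, fixed partners of the members, all measured RGS genes and the 3 nearest genes per member; other genes named were chosen after their values were seen. Alternatives were centring, scaling, other rows, capped ratios, spots, dye term, robust variances, a minimum of 3 arrays and leaving out each array.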

Additional observations from a re-analysis of the deposited data

Results flagged for a closer look

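Of 28 sets of 4 array values checked (the 23 genes that the naming rule gave on all 4 arrays and the 5 list medians), 2 had 1 array far from the other 3; chance gives about 1 in 20, and the sets were in part chosen for their values. Prss23, a gene near Ptgis in its ratios, lay at -4.35 on array 1 and between -2.64 and -2.50 on the others. The median of the cyclic AMP list lay at -0.32 on array 4 and between 0.17 and 0.23 on the others. Ptgis, Prkg2 and Rgs2 were not among the 2.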

How the results depend on the processing

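Limma's count of 0 called genes became 1 (Lox) with arrays scaled to a common spread, 6 without the dye term and, with every spot on its own, 6 spots of 4 genes (Fn1, Col1a1, Col1a2 and Lox), with 0 of the 3 members among any of these calls; it stayed at 0 under the other 7 settings and without any 1 array. Ptgis ran from -3.30 to -3.03 over the other settings and from -3.63 to -2.75 without 1 array, Prkg2 from 2.10 to 2.16 and from 1.81 to 2.27, and Rgs2 from -4.42 to -3.62 without 1 array. Rgs2 moved by more than its SD, to -2.57, with all rows as deposited, by construction from other rows of arrays 2 to 4. The genes were chosen for large ratios, so kept signs are no sign of stability. In the first 6000 rows the cyclic GMP median was 0.95 and the cyclic AMP median 0.36, over 3 and 5 genes. The other list medians moved by less than their SD over arrays, but some signs turned: cyclic GMP from 0.17 to -0.20 with all rows as deposited, G protein subunits from 0.15 to -0.08 without array 3 and cyclic AMP from 0.10 to -0.07 without array 1. The prostanoid median was -0.90 without array 2, against -0.29. The causes were not tested, and these medians have no settled direction. Setting a 1:1 ratio to 0 on each array was added after seeing the data. Signal over background is unknown for these ratios. Each ratio already compares both lines within 1 array, so the pairing of the lines is part of every value and no further pairing was used.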
